A study of Mus musculus with 20 samples.

Results

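Subcerebral projection neurons are the cortical neurons of the deep layers whose axons run to the brainstem and spinal cord. The 9 genes described here, Crym, Pcp4, Crim1, Igfbp4, S100a10, Diaph3, Cntn6, Parm1 and Opn3, were listed by name as markers of these neurons, and all 9 were found among the 55487 genes of the count table by matching gene identifiers to mouse symbols. RNA was sequenced as that of these neurons from mouse pups (postnatal day 1), in 20 libraries that form 4 groups of 5. Markers of other cell types were also counted in these libraries, as given below. Somata came from cortex. Growth cones, the motile tips of growing axons, came from the brainstem and spinal cord. Each compartment has libraries labelled wild-type (WT) and libraries labelled Bcl11b KO, for loss of the transcription factor gene Bcl11b. How the Bcl11b allele was made, how the neurons and growth cones were marked and sorted, and whether animals were pooled are not given in the sources used here. Libraries are named by the experiment number in their titles, which is 12, 14, 22, 25 and 26 for the WT somata, 14, 15, 22, 25 and 26 for the somata labelled KO, and 7 to 11 in growth cones of each genotype. Nothing in the labels says that the libraries of a group came from separate animals, so the p-values below measure the spread between libraries, which may be technical.

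Bcl11b encodes a zinc-finger transcription factor that subcerebral projection neurons need for the outgrowth and guidance of their axons. Marker genes of these neurons separate them from callosal neurons, which connect the hemispheres, and from corticothalamic neurons of the layer below. The 9 markers act in different places in the cell. Crym (mu-crystallin, a thyroid hormone binding protein) and Pcp4 (a small calmodulin-binding protein) are cytosolic. S100a10 is the partner of annexin A2 at the plasma membrane, and Diaph3 is a formin that builds actin filaments. Cntn6 is an immunoglobulin-type adhesion molecule, Parm1 a mucin-like membrane protein and Opn3 an opsin. Crim1 is a membrane protein that binds bone morphogenetic proteins (BMPs), and Igfbp4 is a secreted binding protein of insulin-like growth factors (IGFs).

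The sequences shown are those of Pcp4 and Igfbp4, the members that were higher in growth cones than in somata under both genotype labels. For each, the 250 bases before the RefSeq gene start (build GRCm38.p6) are given, at chr16:96467356-96467605 on the plus strand for Pcp4 and at chr11:99040994-99041243 on the plus strand for Igfbp4. The coding sequence of Pcp4 comes from the GENCODE transcript Pcp4-201 and spans chr16:96467782-96525517 (GRCm38, plus strand, introns left out). Capitals mark TGACCA in the Pcp4 window, TATAAA in the Igfbp4 window and, in the coding sequence, the codons of the IQ motif, through which Pcp4 binds calmodulin.
Pcp4 upstream window: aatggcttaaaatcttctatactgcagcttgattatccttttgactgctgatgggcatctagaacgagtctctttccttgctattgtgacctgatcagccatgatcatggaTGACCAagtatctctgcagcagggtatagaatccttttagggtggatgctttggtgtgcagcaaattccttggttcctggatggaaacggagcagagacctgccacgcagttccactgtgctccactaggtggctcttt
Igfbp4 upstream window: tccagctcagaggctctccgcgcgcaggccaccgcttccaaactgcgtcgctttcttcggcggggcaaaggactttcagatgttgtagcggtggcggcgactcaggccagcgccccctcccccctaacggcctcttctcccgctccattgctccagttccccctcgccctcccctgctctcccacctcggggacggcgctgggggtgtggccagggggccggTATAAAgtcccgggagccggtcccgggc
Pcp4 coding sequence: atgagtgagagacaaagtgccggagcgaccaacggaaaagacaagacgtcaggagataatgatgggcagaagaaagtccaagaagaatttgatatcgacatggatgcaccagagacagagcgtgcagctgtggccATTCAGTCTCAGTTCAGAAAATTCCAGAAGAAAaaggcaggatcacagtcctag

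The Pcp4 coding sequence has 189 bases, and the IQ motif takes bases 136 to 168 of it. The Pcp4 and Igfbp4 upstream windows differ in base composition, with a GC content of 46.8% and 69.2%. RefSeq windows of 250 bases before to 50 bases after the start were found for 7 of the 9 members. Each was searched on both strands for TGACCA, a sequence known to be bound by the paralog Bcl11a, for GGGCGG, a GC box, and for TATAAA. The letters TGACCA were found in the window of Pcp4 alone among the 7, 139 bases before the start, and in 13.6% of all 32851 windows. TATAAA was found only for Igfbp4, 28 bases before the start, and in 13.6% of all windows. GGGCGG was found in the windows of Crim1 and Opn3, with 5 matches in that of Opn3, and in 35.7% of all windows. The windows of Diaph3, Cntn6 and Parm1 held none of these letters, and a match is a description of the sequence, not of binding.

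Sequencing depth, as total counts per library, ran from 18962308 to 36059112 over WT somata and from 35243688 to 51205154 over somata labelled KO. Growth cone libraries held 26382991 to 29323028 counts (WT) and 21657575 to 27723067 counts (labelled KO). Levels are given as CPM, the counts of a gene relative to the size of its library, scaled between all 20 libraries. The targeted gene, Bcl11b, was not lower in libraries labelled KO. Bcl11b stood at 699.8 ± 130 CPM (SD, n = 5) in WT somata while in somata labelled KO its mean was 1150.3 ± 56.7 CPM. No WT library reached the lowest library labelled KO. The log2 difference of 0.74 had an exact permutation p of 0.00794 (two-sided), the smallest that 5 against 5 libraries allow. In growth cones the log2 difference was -0.03 (exact permutation p = 0.944, two-sided). Gene-level counts do not show whether a transcript is intact, so groups are called by their labels, and every direction between genotypes below rests on them.

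The 9 markers covered a wide range of levels in WT somata. Per kilobase of exon, S100a10 was highest, at 243 ± 55.1 CPM per kb (SD, n = 5), and its libraries did not overlap those of any other member. Crym (61.9 ± 19.0), Pcp4 (42.1 ± 13.3) and Cntn6 (35.5 ± 13 CPM per kb) followed, and each neighbouring pair among these overlapped between libraries. A gap separated Cntn6 from Crim1 (8.92 ± 2.12 CPM per kb). Opn3 (5.66), Igfbp4 (3.36), Diaph3 (3.15) and Parm1 (0.628 CPM per kb) came below, with each neighbour overlapping the next. In growth cones of both labels Pcp4 stood first, at 292 ± 92.9 CPM per kb in WT and 275 ± 116 CPM per kb in those labelled KO, followed without overlap by S100a10 and then Crym. Pcp4 was thus behind S100a10 in somata and ahead of it in growth cones of each label.

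**Figure D1:**
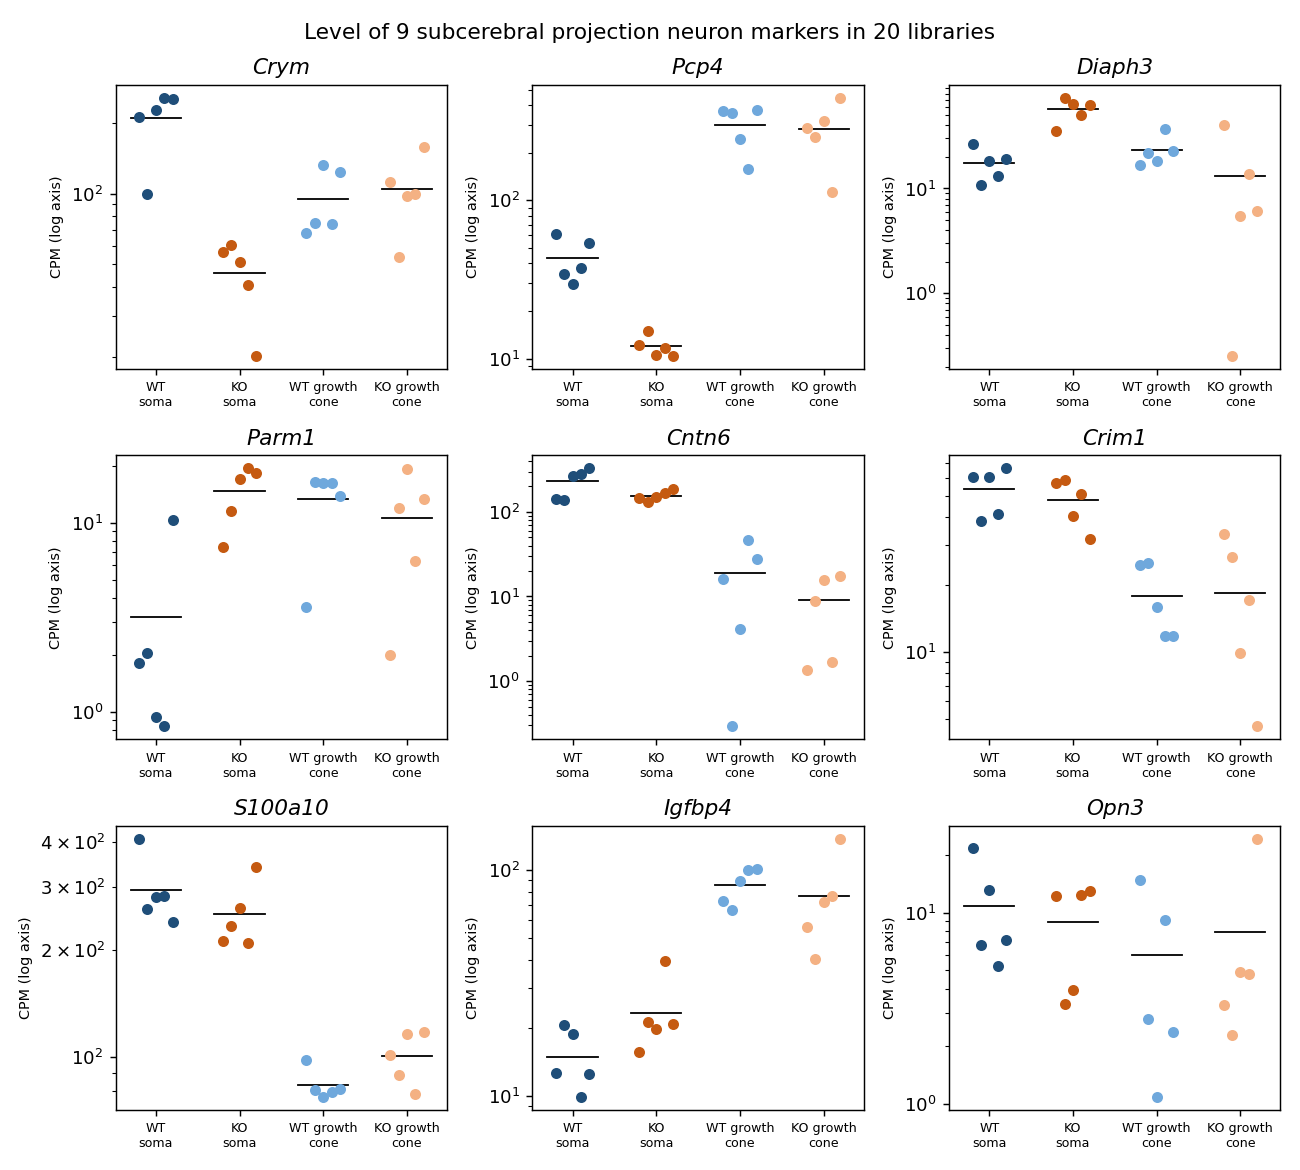
CPM (log axis) of each of the 9 markers in every library, by group; each point is a library, ordered by experiment number, and the line is the group mean. Crym and Pcp4 lie lower and Diaph3 higher in all 5 somata labelled KO than in all 5 WT somata, while the growth cone groups overlap for each marker.

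Between somata labelled KO and WT somata, Crym and Pcp4 fell and Diaph3 rose. These 3 of the 9 markers passed a false discovery rate (FDR) of 0.05 in edgeR's quasi-likelihood test, against 0.731% of all 14911 genes tested (0.315% lower and 0.416% higher). The same 3 markers had no overlap of libraries between the groups, against 3.17% of all genes. With the experiment number fitted as a block, Diaph3 alone was called, at an edgeR adjusted p of 0.0297. Crym and Pcp4 then had edgeR adjusted p-values of 0.152 and 0.0600. The median log2 fold change of the 9 markers was -0.23, against -0.00297 for all genes tested. In bulk RNA, fewer cells of a type and less RNA per cell cannot be told apart.

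Crym (chromosome 7, 120186380 to 120202111, minus strand, GRCm38) is known in thyroid hormone handling. It was counted at 213, 99.3, 226, 256 and 254 CPM in WT somata 12, 14, 22, 25 and 26. In somata 14, 15, 22, 25 and 26 labelled KO it was at 56.1, 60.2, 51.1, 40.5 and 20.3 CPM. WT soma 14 lay far below the other WT somata but still above every library labelled KO. Crym was 4.60-fold lower in somata labelled KO (log2 fold change -2.20 ± 0.31 SE, edgeR adjusted p 0.00600). Adjusted for how many genes each library detected, the log2 fold change was -2.31 and the edgeR adjusted p 0.0524.

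Pcp4 (chromosome 16, 96467606 to 96525793, plus strand) stood at 61.1, 34.1, 29.4, 37.4 and 54.0 CPM in the 5 WT somata. The 5 somata labelled KO held 12.3, 14.9, 10.6, 11.7 and 10.4 CPM. All libraries labelled KO lay in a narrow band below the lowest WT library. The fall was 3.62-fold, with a log2 fold change of -1.86 ± 0.23 (SE) and an edgeR adjusted p of 0.00367. Exons of Pcp4 share 243 bases with Igsf5 on the same strand, and how reads in shared bases were counted is not given in the sources used here.

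Diaph3 (chromosome 14, 86655367 to 87141235, minus strand), the actin-building formin, went the other way. It was at 26.3, 10.9, 18.1, 13.1 and 19.2 CPM in WT somata and at 35.1, 73.1, 63.5, 50.3 and 62.7 CPM in those labelled KO. The lowest library labelled KO, soma 14, stood above the highest WT library, soma 12. The rise was 3.24-fold, with a log2 fold change of 1.70 ± 0.27 (SE) and an edgeR adjusted p of 0.0114. Fitted with all 20 libraries at once, the log2 fold change was again 1.70 but the edgeR adjusted p was 0.751. Diaph3 is also made by dividing cells. The 8 markers of cycling cells summed to 12.1 to 26.6 CPM in WT somata and 9.62 to 30.0 CPM in somata labelled KO, and 0 of the 7 tested passed in edgeR or had an unadjusted p under 0.05. None of the 8 was at 0 in all libraries of a group. The part of dividing cells in the level of Diaph3 was not tested.

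Parm1 (chromosome 5, 91517615 to 91626894, plus strand) was the least abundant marker per kilobase in both soma groups. It stood at 1.82, 2.05, 0.942, 0.837 and 10.3 CPM in WT somata and at 7.42, 11.5, 16.9, 19.4 and 18.3 CPM in those labelled KO. WT soma 26, the shallowest library, was the one WT library above the lowest library labelled KO. The log2 fold change of 2.22 ± 0.68 (SE) did not pass (edgeR adjusted p 0.252). Without WT soma 26 it was 3.37, with an edgeR adjusted p of 0.0102, and with all libraries it passed in limma-voom (adjusted p 0.0479) and in DESeq2 (0.0234).

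Cntn6, the contactin (chromosome 6, 104492790 to 104863406, plus strand), did not pass in somata, with a log2 fold change of -0.57 ± 0.23 (SE) and an edgeR adjusted p of 0.462. Its WT levels fell into separate ranges, 144 and 140.0 CPM in somata 12 and 14 and 264, 279 and 327 CPM in somata 22, 25 and 26. The somata labelled KO, at 146, 132, 149.5, 165 and 184 CPM, were closer together and overlapped the lower WT range. The remaining 4 markers were not called either. Crim1 stood at 38.4 to 66.3 CPM in WT somata and 32.0 to 58.7 CPM in those labelled KO (log2 fold change -0.16 ± 0.21 SE). S100a10 stood at 239 to 409 and 209 to 341 CPM (-0.23 ± 0.17), and Opn3 at 5.26 to 21.8 and 3.33 to 13 CPM (-0.29 ± 0.51). Igfbp4 stood at 9.87 to 20.6 CPM in WT and 15.6 to 39.3 CPM in somata labelled KO (0.64 ± 0.30, or 0.37 without soma 25 labelled KO). The edgeR adjusted p of these 4 ran from 0.586 for Igfbp4 to 0.988 for Opn3.

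**Figure D2:**
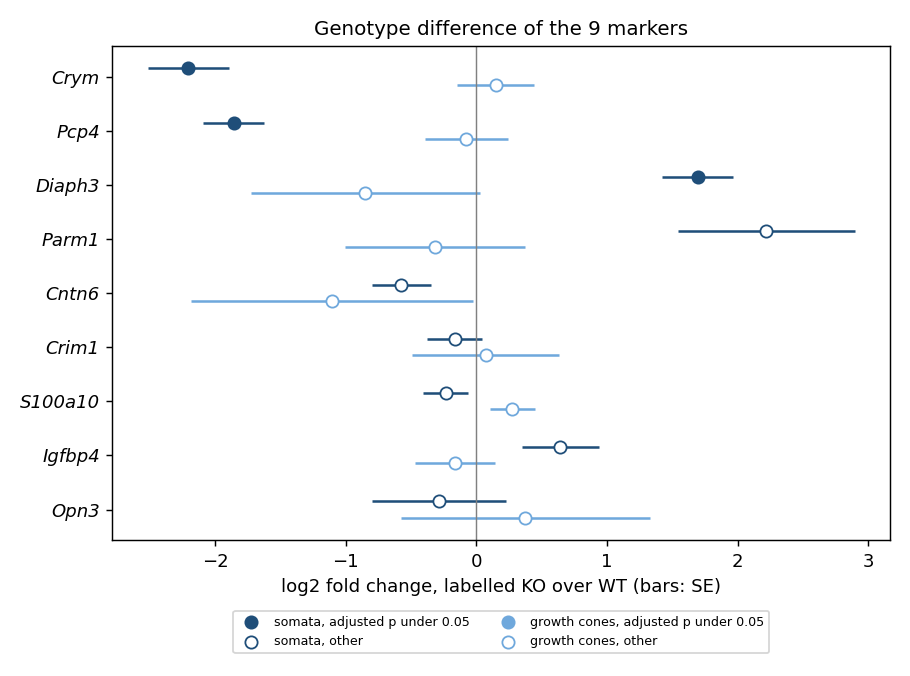
Log2 fold change, labelled KO over WT, of each marker in somata (dark) and growth cones (light); bars are SE and filled points have an edgeR adjusted p under 0.05. Crym and Pcp4 lie below -1.8 and Diaph3 at 1.70 in somata, and none of the growth cone points is filled.

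In growth cones none of the 9 markers passed between the genotype labels. The count was 0 of 9 in edgeR, DESeq2 and limma-voom, and 0 of 9 had an unadjusted edgeR p under 0.05. Over all 15419 genes tested, 0% passed in edgeR and 2.13% had an unadjusted p under 0.05. Groups overlapped for all 9 markers, where 0.532% of all genes had no overlap. Crym was at 68.2, 74.9, 133, 73.9 and 123 CPM in WT growth cones 7 to 11 and at 113, 53.6, 97.6, 99.4 and 159 CPM in growth cones 7 to 11 labelled KO. Its log2 fold change was 0.15 ± 0.29 (SE). Pcp4 was at 367, 358, 244, 157 and 370 CPM in WT and at 286, 252, 317, 113 and 443 CPM in those labelled KO, with growth cone 10 lowest under both labels. Its log2 fold change was -0.08 ± 0.32 (SE). Diaph3 scattered widely in growth cones labelled KO, at 40.2, 0.253, 5.43, 13.6 and 6.16 CPM, against 16.7, 22, 18.1, 37.0 and 23.0 CPM in WT. The edgeR adjusted p of all 9 markers was 0.999. The standard errors of Diaph3, Cntn6 and Opn3 were 0.87, 1.08 and 0.95 on the log2 scale, and those of Parm1 and Crim1 were 0.69 and 0.56. With such spread, a change of the size seen for Diaph3 in somata (1.70) could have been missed. Whether it could be detected was not tested.

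An interaction term in a fit of all 20 libraries tested whether the genotype difference was unequal in somata and growth cones. None of the 9 markers passed in edgeR, where 0.0397% of all 17645 genes did. By unadjusted edgeR p under 0.05 there were 5 of 9 (Crym, Pcp4, S100a10, Diaph3 and Parm1), against 6.98% of all genes. The interaction of Crym was 2.34 ± 0.45 (SE) on the log2 scale with an edgeR adjusted p of 0.0607, and that of Pcp4 was 1.77 ± 0.42 with 0.178. The DESeq2 Wald test called both, with adjusted p-values of 3.52e-05 for Crym and 0.00243 for Pcp4, and limma-voom called 0 of the 9. In edgeR the adjusted p of Crym was 0.0351 without WT soma 14 and 0.0345 without growth cone 8 labelled KO. That of Pcp4 was 0.0441 without growth cone 10 labelled KO. Counting DESeq2, Crym passed in 3 of 28 alternative fits and Pcp4 in 2 of 28. Adjusted for how many genes each library detected, the edgeR adjusted p was 0.197 for Crym and 0.341 for Pcp4. The soma falls of Crym and Pcp4 were therefore not shown by edgeR to differ from the growth cone values.

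The next comparison set growth cones against somata within a genotype label. Somata and growth cones also differ in tissue, RNA input range and experiment number, which cannot be told apart from the compartment. In WT, 6 of the 9 markers passed, 2 higher and 4 lower in growth cones, against 42.8% of all 15128 genes tested (23.1% higher, 19.7% lower). In libraries labelled KO, 6 of 9 passed, 3 higher and 3 lower, against 38.6% of 15410 genes (21.6% higher, 17.0% lower). No overlap between the compartments was seen for 5 of 9 markers in WT and 4 of 9 in those labelled KO, against 37.9% and 36.8% of all genes. The median log2 fold change of the markers was -0.80 in WT and -0.40 in libraries labelled KO, against 0.07 and 0.11 for all genes. Upper-quartile scaling moved the medians of all genes to 0.28 and 0.31, and under it the log2 fold change of Opn3 in libraries labelled KO changed sign.

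Pcp4 and Igfbp4 were higher in growth cones under both labels. Pcp4, at the growth cone levels above, was 7.15-fold higher than in somata in WT (log2 fold change 2.84 ± 0.29 SE, edgeR adjusted p 1.37e-05). In libraries labelled KO it was 25-fold higher (4.64 ± 0.34, edgeR adjusted p 1.88e-06). The growth cone means, 299 ± 95.3 and 282 ± 119 CPM (SD, n = 5), differed by less than their spread, whereas the soma means were 43.2 ± 13.6 and 12 ± 1.80 CPM. Igfbp4 (chromosome 11, 99041244 to 99054392, plus strand), which restrains IGF signals outside the cell, was at 72.5, 66.3, 89.3, 99.4 and 101 CPM in WT growth cones. In growth cones labelled KO it was at 55.6, 40.2, 71.6, 76.2 and 137 CPM. Every growth cone library lay above every soma library. Its log2 fold change was 2.57 ± 0.27 (SE) in WT and 1.79 ± 0.36 in libraries labelled KO (edgeR adjusted p 1.49e-05 and 0.00228).

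S100a10, Cntn6 and Crim1 were lower in growth cones under both labels. S100a10 (chromosome 3, 93555080 to 93564643, plus strand) was at 98.2, 80.8, 77.2, 79.5 and 81.1 CPM in WT growth cones, 3.42-fold below somata (log2 fold change -1.78 ± 0.17 SE, edgeR adjusted p 8.55e-06). In growth cones labelled KO it was at 101, 88.8, 116, 78.5 and 118 CPM (-1.24 ± 0.18, edgeR adjusted p 0.000238). Relative to its mean, it varied least of the 9 markers among growth cone libraries of each label (coefficient of variation 10.1% in WT and 17.0% in those labelled KO). Cntn6 spanned 0.291 to 46.2 CPM in WT growth cones and 1.37 to 17.2 CPM in those labelled KO, all below every soma library. Its log2 fold changes were -3.56 ± 0.87 (SE) in WT and -4.03 ± 0.67 in libraries labelled KO (edgeR adjusted p 0.00583 and 0.000598). Crim1 (chromosome 17, 78200248 to 78376592, plus strand), the BMP-binding membrane protein, was at 24.5, 24.9, 15.8, 11.8 and 11.7 CPM in WT growth cones. It was 2.92-fold below somata there (log2 fold change -1.55 ± 0.32 SE, edgeR adjusted p 0.00208). In growth cones labelled KO its 33.7, 26.6, 9.90, 17.0 and 4.63 CPM overlapped the somata, and the call was marginal (-1.30 ± 0.48, edgeR adjusted p 0.0492). Leaving out 1 library removed that call in 6 of 10 fits, and the edgeR adjusted p reached 0.0993 when soma 15 labelled KO was the one left out. It was also lost under each other edgeR scaling, where the adjusted p ran up to 0.0966 with upper-quartile scaling, and it was kept in DESeq2 (0.0190) and limma-voom (0.0126).

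Crym was the one member called in opposite directions. It was lower in growth cones than in somata in WT (log2 fold change -1.11 ± 0.28 SE, edgeR adjusted p 0.00717) and higher in libraries labelled KO (1.27 ± 0.33, edgeR adjusted p 0.0100). The growth cone means of 94.6 ± 30.9 and 104 ± 37.7 CPM (SD, n = 5) lay between the soma means of 210 ± 64.4 CPM in WT and 45.7 ± 16 CPM in those labelled KO. The growth cone and soma libraries of Crym overlapped under each label. The difference between these compartment effects is the interaction given above, which did not pass. Diaph3, Parm1 and Opn3 (chromosome 1, 175662421 to 175692776, minus strand) were called under neither label in the edgeR fits. Parm1 in WT missed the threshold at an edgeR adjusted p of 0.0522, with a log2 fold change of 2.11 ± 0.81 (SE). It passed in 8 of 18 alternatives, among them each other edgeR scaling (adjusted p 0.0377 to 0.0470) and limma-voom (0.0142). Without WT soma 26 it was 3.24 with an edgeR adjusted p of 0.00423. Diaph3 in libraries labelled KO had a log2 fold change of -2.04 ± 0.85 and an edgeR adjusted p of 0.0804, or -3.13 and 0.0107 without growth cone 7 labelled KO and -1.73 and 0.0413 without growth cone 8. It passed in 6 of 18 alternatives, among them DESeq2 (adjusted p 0.0222) and limma-voom (0.00984). Opn3 was low and scattered, at 1.09 to 14.8 CPM in WT growth cones and 2.28 to 24.3 CPM in those labelled KO. Exons of Opn3 share 461 bases with Chml on the same strand, and those of Crim1 share 123 bases with Fez2 on the opposite strand.

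**Figure D3:**
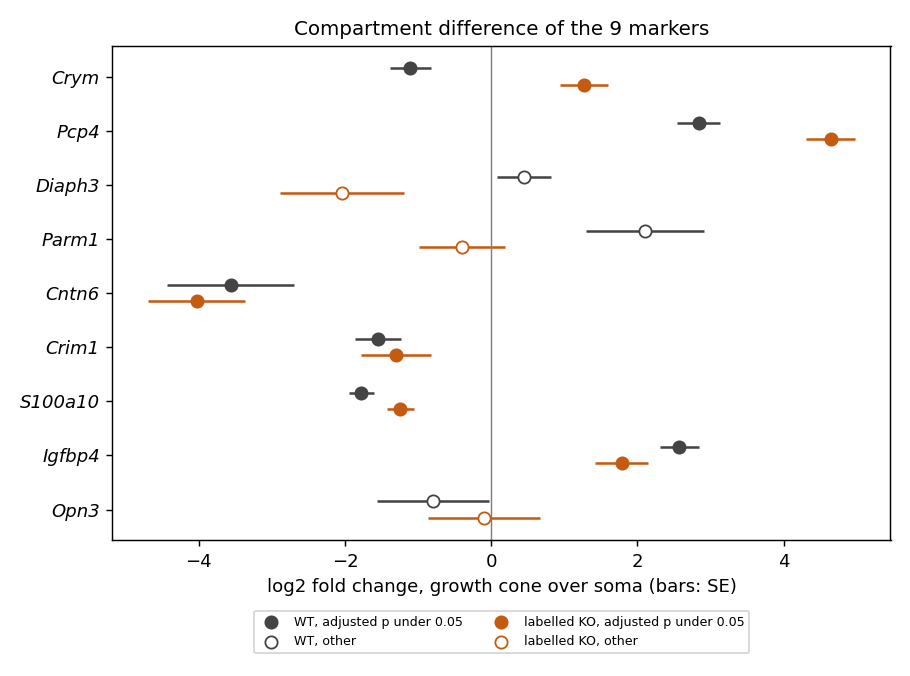
Log2 fold change, growth cone over soma, of each marker in WT (grey) and in libraries labelled KO (orange); bars are SE and filled points have an edgeR adjusted p under 0.05. Pcp4 and Igfbp4 lie to the right and S100a10, Cntn6 and Crim1 to the left under both labels, and Crym lies on opposite sides of 0.

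Markers of several other cell types moved with these comparisons. Between compartments in WT, microglia and corticothalamic sums overlapped. The 6 microglia markers summed to 2.32 to 70.6 CPM in WT somata and 29.2 to 46.3 CPM in WT growth cones. The 8 corticothalamic markers summed to 146 to 271 and 197 to 407 CPM there. In libraries labelled KO the corticothalamic sums were 403 to 568 CPM in somata and 224 to 388 CPM in growth cones. The 10 hindbrain and spinal cord markers summed to 0.0573 to 0.179 CPM in WT somata and 0.0310 to 0.0840 CPM in somata labelled KO, where Hoxb4, Hoxc6, Hoxb8 and Slc6a5 had 0 counts. Hoxc6 and Lbx1 had 0 counts in WT somata. In growth cones they summed to 75.6 to 153 CPM in WT and 65.0 to 158 CPM in those labelled KO. The 7 astrocyte markers summed to 30.1 to 271 CPM in WT somata and 1651 to 2364 CPM in WT growth cones, and to 123 to 348 and 1633 to 2184 CPM in libraries labelled KO. The 8 oligodendrocyte lineage markers summed to 59.5 to 109 CPM in WT somata and 470.4 to 2095 CPM in WT growth cones, and to 67.0 to 98.4 and 503 to 1497 CPM in those labelled KO. The 9 vessel and blood markers summed to 3.16 to 27.1 CPM in WT somata and 264 to 522 CPM in WT growth cones. In libraries labelled KO these sums were 0.310 to 69.8 and 252 to 568 CPM. Their part in the levels of Pcp4, Igfbp4, S100a10 and the other markers was not tested. The 8 interneuron markers summed to 603 to 829 CPM in WT growth cones, above the 121 to 199.6 CPM of WT somata. The 9 other markers of subcerebral projection neurons summed to 1800.4 to 2329 CPM in WT somata and 426 to 548 CPM in WT growth cones, the opposite order. Gene by gene, 4 of them were lower, 1 was higher and 4 were not called, against 19.7% lower and 23.1% higher of all genes tested. The 9 callosal markers summed to 413 to 498 CPM in WT somata and 1162 to 1443 CPM in WT growth cones. Of these 9, 6 were higher and 1 lower in WT growth cones, against 23.1% and 19.7% of all genes tested. The 8 cycling cell markers summed to 66.4 to 117 CPM in WT growth cones, above their WT soma range. Of the 7 tested, 3 were higher, against 23.1% of all genes.

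**Figure D4:**
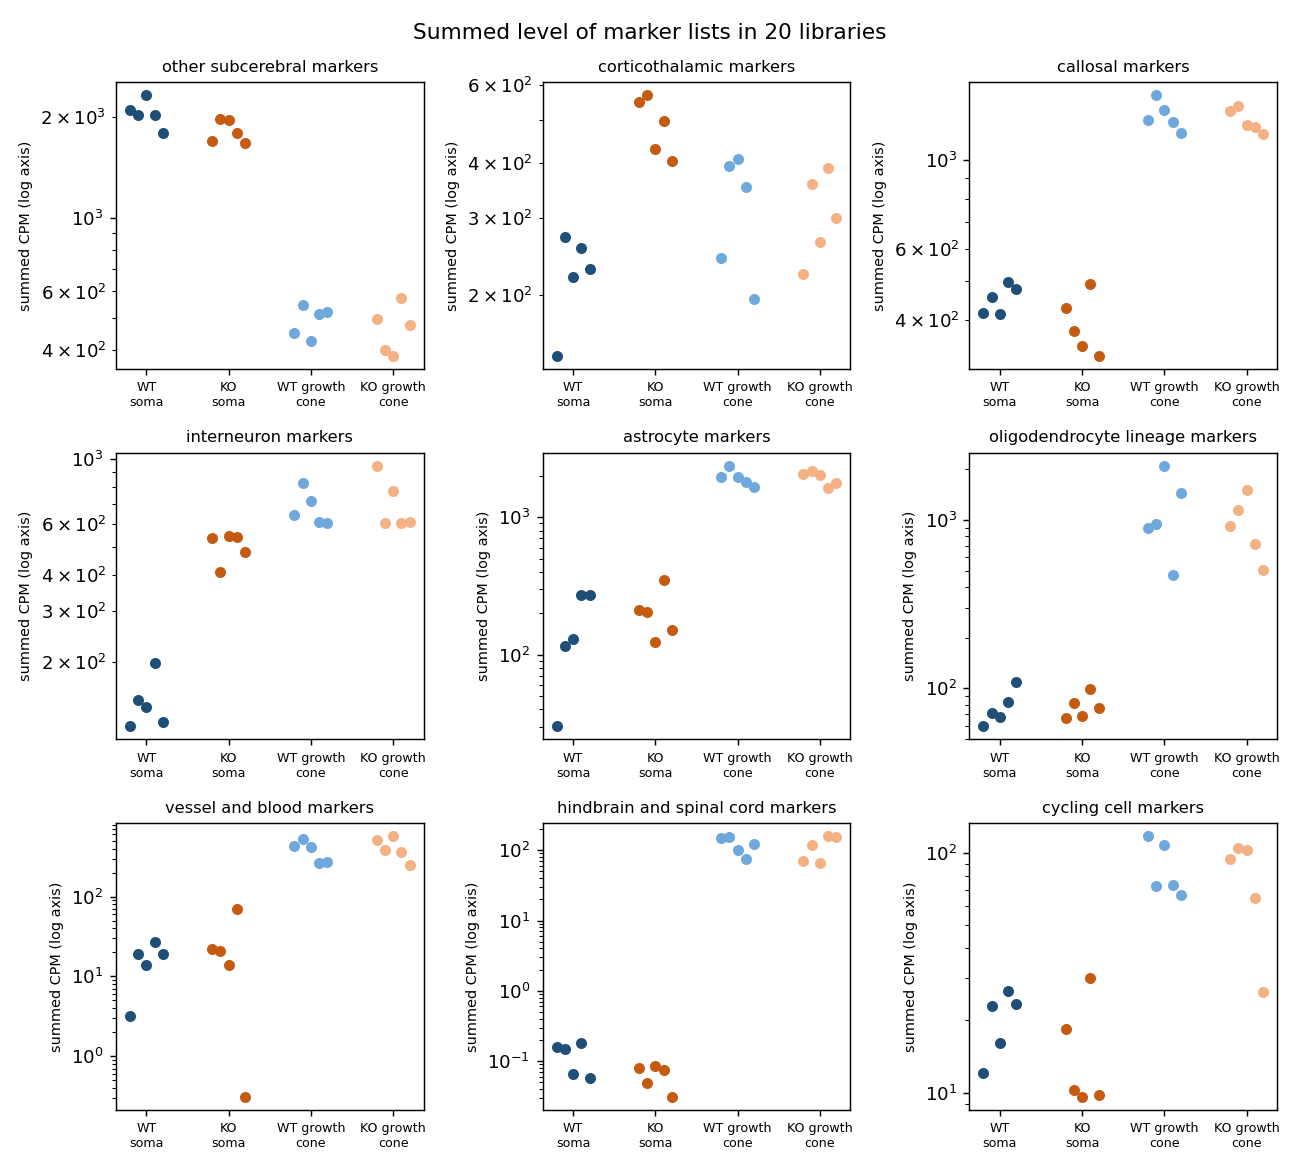
Summed CPM (log axis) of 9 marker lists in every library, by group; each point is a library, ordered by experiment number. The hindbrain and spinal cord markers sum to at most 0.179 CPM in somata and at least 65.0 CPM in growth cones. Corticothalamic and interneuron sums do not overlap between the soma groups. Of the 7 interneuron markers tested there, Npy was the 1 that was called, and the median log2 fold change of the 7 was 0.20.

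Between the soma groups, corticothalamic markers and Npy differed. Over all genes tested in somata, 0.731% passed in edgeR and 8.57% had an unadjusted edgeR p under 0.05. The 8 corticothalamic markers summed to 146 to 271 CPM in WT somata and 403 to 568 CPM in somata labelled KO, without overlap. Tle4 rose by 1.80 on the log2 scale (edgeR adjusted p 0.00693), Hs3st4 rose by 1.36 (0.0268) and 6 were not called. The 8 interneuron markers summed to 121 to 199.6 CPM in WT somata and 409 to 543 CPM in those labelled KO, and Npy was the 1 of the 7 tested that rose. Npy alone went from a mean of 113 to 471 CPM, and the median log2 fold change of the 7 was 0.20. The 9 callosal markers summed to 413 to 498 and 326 to 490.4 CPM, and 0 of the 9 passed in edgeR, with 1 at an unadjusted p under 0.05. None of the corticothalamic, interneuron or callosal markers was at 0 in all libraries of a group. Their part in the soma changes of Crym, Pcp4 and Diaph3 was not tested.

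Of the 9 other subcerebral markers, 3 passed in somata, in both directions, against 0.731% of all genes tested. Etv1, an ETS transcription factor, rose from 82.1 ± 33.8 to 272 ± 35.5 CPM (SD, n = 5), by 1.73 on the log2 scale with an edgeR adjusted p of 0.00475. Tox, an HMG-box protein, rose from 85.1 ± 4.04 to 126 ± 5.69 CPM (0.56, edgeR adjusted p 0.00861). Cdh13, a cadherin anchored to the membrane by lipid, fell from 811 ± 172 to 343 ± 75.9 CPM (-1.24, edgeR adjusted p 0.00652). Fezf2, Ldb2, Cdh22, Ntng1, Otx1 and Klhl14 were not called. Libraries did not overlap for the 3 called genes or for Fezf2 and Klhl14, against 3.17% of all genes. By unadjusted edgeR p under 0.05 there were 8 of the 9, against 8.57% of all genes. As with the 9 markers, the median log2 fold change of this list, 0.48, covers genes that moved both ways.

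Genes that act with the 9 markers were examined by role. Nrgn, a postsynaptic protein that like Pcp4 binds calmodulin through an IQ motif, fell in somata labelled KO, from 266 ± 58.2 to 117 ± 23.8 CPM (SD, n = 5). That is a log2 fold change of -1.19 ± 0.18 (SE, edgeR adjusted p 0.00917). Gap43 (log2 fold change -0.07), Calm2 (-0.27), Calm3 (-0.23) and Pcp4l1 (-1.35) were not called. In somata 0 of 8 tested BMP genes, 0 of 11 IGF genes, 0 of 6 annexin A2 and S100 genes and 0 of 9 contactin genes passed in edgeR. At an unadjusted edgeR p under 0.05 there were 1, 3, 1 and 0 in that order, where 8.57% of all genes tested in somata met the same threshold. In growth cones none of these lists had a member that passed between the labels in edgeR, where 0% of all genes passed. Of 8 tested annexin A2 and S100 genes, 1 had an unadjusted edgeR p under 0.05 there, against 2.13% of all genes. The 4 other opsin genes, Opn4, Opn5, Rgr and Rrh, had too few counts to be tested in any comparison.

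The genes whose level was most like that of each member over the 10 soma libraries were found by the Pearson correlation of log2(CPM + 1), among 10371 genes with at least 5 CPM on average. These correlations describe libraries that share genotype labels and depth. Rnd1, a small GTPase, was among the closest 3 genes to both Crym (r = 0.95) and Pcp4 (r = 0.97). Once the group means were removed these values were 0.75 and 0.85. Slain1 (r = 0.97) and Sqstm1 (0.95) were the others for Crym, and Actr3b (0.95) and Wnt5a (0.95) for Pcp4. With group means removed, these 4 were at 0.86, 0.76, 0.77 and 0.57 in that order. Crym and Pcp4 correlated with each other at r = 0.91 over the 10 somata, and at 0.39 once group means were removed. For Diaph3 the closest genes were Larp1b (0.97), Tox (0.95) and Dusp6 (0.94), and for Parm1 they were Bpgm (0.95), Hap1 (0.93) and Rgl1 (0.93). With group means removed, the values for Diaph3 were 0.83, 0.70 and 0.67, and those for Parm1 0.85, 0.77 and 0.84. For Cntn6 they were Satb1, Impa1 and Ak5 (0.94 to 0.95), for S100a10 Psma2, Rnaseh2a and Asns (0.91 to 0.93), and for Opn3 Soat1, Mfap2 and Kmt2c (0.89 to 0.97). For Crim1 they were Camk2n1, Raly and Ankrd44 (0.86 to 0.90) and for Igfbp4 Ube2q2, Snx14 and Pde1c (0.90 to 0.92).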

How the data were processed

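The deposited table holds raw gene counts, 1 column per library. Trimmomatic 0.39, STAR 2.7.1a, featureCounts 1.5.0 and the build GRCm39 are named in the submitters' processing notes. The gene coordinates in the deposited table are those of GRCm38 instead, and 98.1% of genes have exactly the exons of GENCODE M21, so all coordinates here are GRCm38. Use of strand is not given in the sources used here. Per the labels' protocols, cDNA was made with SMART-seq v4 from 1.8 to 3.1 ng of soma RNA or 0.19 to 3.1 ng of growth cone RNA. Libraries were assigned to groups from their titles. Libraries of a group all differed by more than counting noise (smallest chi-square per degree of freedom 52.7).

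Each comparison was fitted to all genes with edgeR 4.0.16 in R 4.3.3 (filterByExpr with a minimum count of 10, TMM scaling, quasi-likelihood F test, Benjamini-Hochberg FDR of 0.05), using only the groups compared. SE values were derived from the F statistics. CPM levels were scaled by TMM over all 20 libraries, so their ratios can differ slightly from fitted fold changes. Bcl11b was tested as log2(CPM + 0.5) by an exact permutation test. DESeq2 1.42.0, limma 3.58.1 (voom), other scalings, no filter, a detected-gene covariate, a replicate block and leaving out each library were the alternatives. The fits were also run on simulated counts that gave every gene and group the same relative spread, unlike these data. Some genes of the role lists, and the counts of lists that hold them, are not reported here. The text names all 9 members, Bcl11b, called genes of the role lists, and the 3 genes most like each member. The members and lists were chosen with earlier results of these data known.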

Additional observations from a re-analysis of the deposited data

Results flagged for a closer look

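In 5 of the 36 sets of 5 libraries (9 markers in 4 groups) 1 library stood far from the other 4 on the log2 scale, judged by the gap to its nearest neighbour over the whole range. Chance alone gives this in about 1 of 20 sets. Crym was at 99.3 CPM in WT soma 14, the lowest of its group. Parm1 was at 10.3 CPM in WT soma 26, the highest of its group, and at 3.56 CPM in WT growth cone 7, the lowest. S100a10 was at 98.2 CPM in WT growth cone 7, the highest of its group. Opn3 was at 24.3 CPM in growth cone 11 labelled KO, the highest of its group.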

How the results depend on the processing

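All values here come from alternatives to the edgeR fits above. In somata 3 of the 9 markers were called, and 3 or 4 when 1 library was left out. All genes called in somata numbered 109, and 402 under the DESeq2 Wald test, 30 with all 20 libraries in 1 fit, 34 with the replicate block and 67 to 107 when 1 library was left out (67 when soma 22 labelled KO was left out, 68 when WT soma 22 was). In growth cones 0 genes were called between the labels, and 11 under DESeq2 and 7 in the fit of all 20 libraries. For the interaction 7 genes were called (2 higher, 5 lower), 10 with library totals alone (4 higher, 6 lower), 262 under DESeq2, 4 with detected genes as a covariate, 0 with the replicate block and 5 to 12 when 1 library was left out (12 when WT growth cone 7 was left out, 11 when the one labelled KO of that number was). Of the 9 markers 2 were called in the interaction under DESeq2, and 0 or 1 when 1 library was left out. The cause of these moves was not tested.

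Experiment numbers are shared by 5 growth cone pairs and 4 soma pairs. Deviations of same-numbered libraries correlated at 0.0307 to 0.114 in growth cones and 0.0234 to 0.148 in somata. These values are low, but all 10 growth cone libraries correlated best with their own number, as did 5 of 8 somata. The numbers may therefore link libraries, and the fits above leave such a link out. With the replicate block 1 marker (Diaph3) was called in somata, Crym had an edgeR adjusted p of 0.152 and Pcp4 of 0.0600, and the Bcl11b log2 difference in somata was 0.68 (edgeR adjusted p 0.162). No paired analysis was possible because libraries of different compartments share no numbers, for the comparisons of growth cones with somata.

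Of 918 alternative log2 fold changes of the markers, 855 kept direction and side of the threshold. Signs changed only for values that were not called. For Opn3 in somata the block gave 0.36, and leaving out 1 library gave -0.46 to 0.14. In growth cones between labels, leaving out 1 library gave -0.24 to 0.32 for Crim1, -0.29 to 0.12 for Pcp4, -0.0431 to 0.31 for Crym, -0.65 to 1.03 for Opn3 and -0.16 to 0.0899 for Bcl11b. For Crim1 there limma-voom gave -0.13 and the block -0.16. For Opn3 between compartments in libraries labelled KO, upper-quartile scaling gave 0.0658 and leaving out 1 library -1.16 to 0.13. In the interaction, leaving out 1 library gave -0.12 to 0.45 for Crim1, -0.38 to 1.30 for Opn3 and -0.92 to 0.14 for Cntn6, while limma-voom gave -0.0259 for Crim1 and the block -0.0114 for Opn3. Levels under a few CPM, as in Parm1 and Opn3, limit what can be read from single libraries.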

Other observations

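Between compartments in WT, 23.1% of all genes tested were higher in growth cones and 19.7% lower, and the counts of list genes below stand beside these shares. Of 8 tested annexin A2 and S100 genes 7 were higher in growth cones and 0 lower, while S100a10 itself was lower. Anxa2, the binding partner of S100a10, was at 4.41 ± 1.09 CPM (SD, n = 5) in WT somata and 38.3 ± 11 CPM in WT growth cones (log2 fold change 3.16, edgeR adjusted p 2.88e-05). S100a16 and S100a6 had log2 fold changes of 4.97 and 5.67 (edgeR adjusted p 0.000608 and 0.00143). In libraries with the KO label 7 of 8 were higher and 0 lower, against 21.6% and 17.0% of all genes tested there. Anxa2 had a log2 fold change of 3.19 in these libraries. The whole list of S100 genes includes S100b, which astrocytes make, and the astrocyte sums in the report moved the same way, and their part in it was not tested.

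Pcp4l1, a relative of Pcp4, was, like Pcp4, higher in WT growth cones (log2 fold change 4.82, edgeR adjusted p 0.000908). Calm2 was lower (-0.58, 0.00229). The thyroid hormone receptor gene Thra was higher, at 209 ± 57.5 CPM in WT somata and 795 ± 93.8 CPM in WT growth cones (1.97, edgeR adjusted p 6.56e-06). The transporter gene Slc7a5 (-2.01) was lower, like Crym in WT. Of 10 contactin genes and partners 4 were lower, among them Ptpra (-2.17), Chl1 (-1.82) and Cntn1 (-1.55), as Cntn6 was, and 1 was higher. Among formins, Fmnl2 (1.86) and Diaph1 (1.31) were higher and Daam1 (-1.26) lower. Of 12 tested IGF genes 4 were higher, with Igfbp7 at 3.35 and Igf2 at 5.02. The protease gene Pappa2, 1 lower member, stood at 2.57 to 10.8 CPM in WT somata and at 1 count or fewer in every WT growth cone. Of 9 tested BMP genes Nog (2.86) and Bmp7 (4.27) were higher and 0 were lower.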
